A study of Mus musculus with 30 samples.

Results

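The genes described here are the enzymes, carriers and transporters of fatty acid oxidation in mitochondria and peroxisomes, 35 genes chosen by symbol for their known roles, with earlier results of these libraries known. All 35 stood on 1 row each among the 21652 genes of the deposited tables, and all 35 passed the filter on low counts in both tissues. They were listed as the carnitine shuttle with 6 genes, mitochondrial beta-oxidation with 17 and peroxisomal oxidation with 12. Each gene was listed in a single class, though some of the proteins may lie in both organelles. The libraries were 30 polyA RNA-seq libraries of brown adipose tissue (BAT) and inguinal white adipose tissue (iWAT) of male C57BL/6J mice aged 7 to 8 weeks. In each tissue 5 libraries came from mice kept at 22 °C, 5 from mice after 6 h at 6 °C and 5 from mice after 24 h at 6 °C. All mice had been caged in groups of 5 in a room held at 24 ± 2 °C. The labels number the libraries as replicates and do not say that each came from a separate mouse, so p-values measure the spread between these libraries, which may be technical.

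Fatty acids enter mitochondria as carnitine esters. Carnitine palmitoyltransferase 1 makes the ester on the outer membrane and is blocked by malonyl-CoA, a carrier exchanges the ester for free carnitine across the inner membrane, and carnitine palmitoyltransferase 2 restores the acyl-CoA. Each turn of beta-oxidation then dehydrogenates, hydrates, dehydrogenates again and cleaves the chain, and the electrons of the first step reach the respiratory chain through the electron transfer flavoprotein. Peroxisomes take up very long and branched chains through ABCD transporters, shorten them by their own enzymes and break down phytanic acid by alpha-oxidation. In brown adipocytes the mitochondrial pathway feeds heat production by the uncoupling protein UCP1.

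Levels are given as CPM, counts per 1000000 counts of a TMM-scaled library, as values of replicates 1 to 5 or as mean ± SD (n = 5 libraries a group). Levels of different genes are compared only in the authors' FPKM, which are per kilobase of gene. Differences are log2 fold changes ± approximate SE of edgeR's quasi-likelihood test, and a gene was called when its Benjamini-Hochberg adjusted p over all genes tested was under 0.05. The 6 h and 24 h comparisons of a tissue share their 22 °C libraries, and comparisons between tissues use the same libraries again. In bulk tissue, fewer cells of a type and less RNA per cell cannot be told apart. The libraries held 25345889 to 40986043 counts each. The tissue labels were checked on Ucp1, at 11859.6 ± 1309.6 CPM in BAT and 270.5 ± 298 CPM in iWAT at 22 °C, and on Zic1, a gene of classical brown fat, at 10.01 to 26.8 CPM in BAT and at most 0.0262 CPM in iWAT at 22 °C. Summed skeletal muscle markers (12 genes) reached 3999.9 CPM in iWAT 22 °C replicate 2, against 41.2 to 95.8 CPM in the other iWAT libraries, and ran between 80.2 and 10262 CPM over the BAT libraries.

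BAT carried the pathway at the higher level at 22 °C. The 35 genes together took 2.64 ± 0.0604% of all counts in BAT and 0.995 ± 0.203% in iWAT at 22 °C. The shares were 2.46 ± 0.1003% in BAT and 1.17 ± 0.191% in iWAT after 6 h, and 2.61 ± 0.0978% in BAT and 1.29 ± 0.0942% in iWAT after 24 h. At 22 °C 30 of the 35 genes were called higher and 2 lower in BAT than in iWAT, that is 91.4% called where 66.9% of all 14089 genes tested were called. After 6 h the counts were 24 higher and 5 lower (82.9%, against 66.2% of all genes), and after 24 h they were 27 higher and 3 lower (85.7%, against 63.6% of all genes). The median log2 difference of the 35 genes was 1.53 at 22 °C, 0.98 after 6 h and 1.21 after 24 h, where the medians over all genes were -0.04, -0.02 and -0.02. On FPKM, which carry no TMM factor, all genes shifted by a median of -0.34, -0.19 and -0.23 between the tissues, and the members' medians were 0.96, 0.58 and 0.77 on log2(FPKM + 1). After 24 h the split of calls on that scale was 23 higher and 6 lower.

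The classes are given beside the shares of all genes, and differences between classes were not tested. Of all genes 32.4% were called higher and 34.5% lower in BAT than in iWAT at 22 °C, and 26% were higher with no overlap. All 17 genes listed as mitochondrial were called higher in BAT at 22 °C, with no overlap between the BAT and iWAT libraries. Their median log2 difference was 1.79. On log2(FPKM + 1) the calls of Acad11 and Eci2 were lost after 6 h (0.195 and 0.097) and after 24 h (0.198 and 0.114). Of the 12 peroxisomal genes 9 were called higher and 1 lower at 22 °C, with a median of 0.69. This split depended on the scale. On log2(FPKM + 1) Acox3 turned to a lower call (-0.29) and Acaa1a gained a lower call (-0.63). There the higher calls of Acaa1b and Pex11a were lost (-0.07 and -0.14). After 6 h 4 peroxisomal genes were higher and 4 lower in BAT, with a median of 0.16, near the shares of all genes (32.6% higher and 33.7% lower). After 24 h 6 were higher and 3 lower, with a median of 0.29, where 31.6% of all genes were higher and 32% lower. Of the 6 shuttle genes 4 were higher and 1 lower at 22 °C. In FPKM at 22 °C the highest gene in both tissues was Acadl, at 1205 ± 25.6 in BAT and 369 ± 118 in iWAT. The lowest were Hacl1 in BAT at 0.507 ± 0.041 and Cpt1b in iWAT at 0.47 ± 0.31. Exon bases of both are shared with other genes on the same strand, as given below. Reads there may not have been counted, so both values may be too low.

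**Figure D1:**
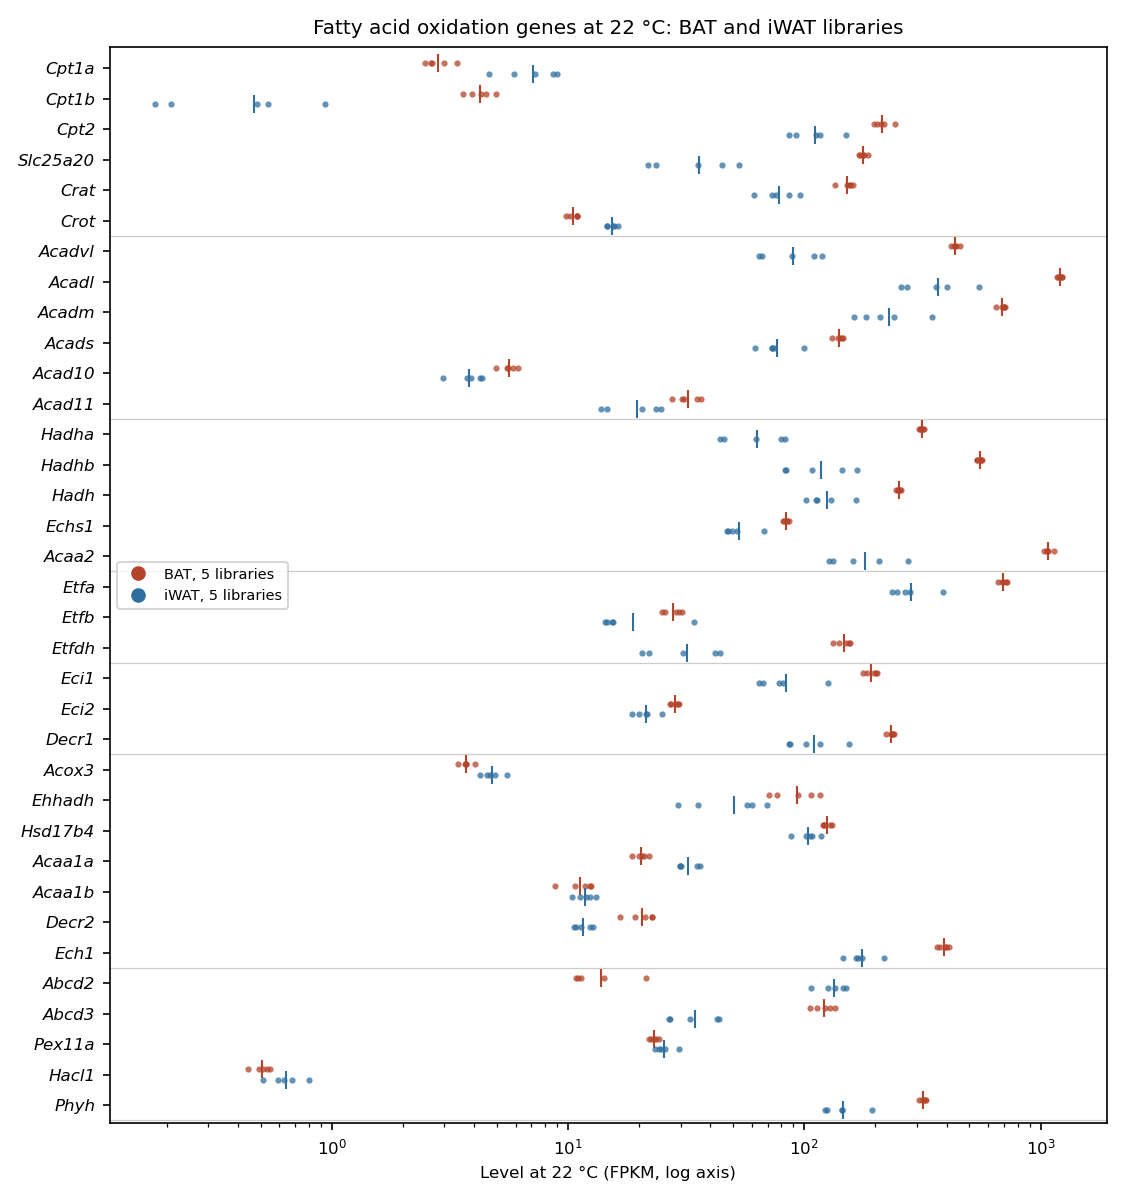
Levels of the 35 genes at 22 °C in FPKM on a log axis, 5 BAT libraries (red, upper) and 5 iWAT libraries (blue, lower) for each gene, with the group mean as a bar and grey lines between roles. The genes listed as mitochondrial, from Acadvl to Decr1, have their BAT mean to the right, though iWAT replicate 4 of Etfb lies right of its BAT libraries. Cpt1a, Crot, Acox3, Acaa1a and Abcd2 stand wholly to the left in BAT.

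In cold the members called were mostly higher in iWAT, and in BAT those called after 6 h were all lower. After 24 h the BAT calls went both ways. In BAT no gene was higher and 9 were lower after 6 h, or 25.7%, which lies near the 22.7% of all 13090 genes called. After 24 h 2 were higher and 6 lower in BAT, or 22.9%, no more than the 23.1% of all genes called. Whichever library was left out, the 24 h calls kept in BAT were Cpt1a and Crat, higher, and Acaa2, Eci1 and Abcd2, lower. The lower calls in BAT after 6 h were 25.7% of the members and 10.2% of all genes. After 24 h they were 17.1% of the members and 10.4% of all genes, while 20 of the 35 log2 differences lay above 0 (median 0.04). Between 6 h and 24 h, 11 members were called higher in BAT and none lower, or 31.4% where 13% of all genes were called. In iWAT 13 genes were called higher and 1 lower after 6 h, or 40% of the members where 23% of all 13689 genes were called, and 14 were higher and 1 lower after 24 h, or 42.9% where again 23% were called. In iWAT none of the 35 genes passed between 24 h and 6 h, where 0.00731% of all genes, a single gene, did and 1351 genes had an unadjusted p under 0.05 in edgeR. DESeq2 called 1 member there.

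The iWAT counts depended on single libraries. The shares of all genes called in these refits are not given here, so a change particular to the members cannot be told from a change over all genes. Of the 22 °C libraries, leaving out replicate 4 raised the count of members called after 6 h to 28. Leaving out replicate 1 left 3, replicate 2 left 4, replicate 5 left 5 and replicate 3 left 8. Of the 6 h libraries, leaving out replicate 3 raised it to 24, while 3 were left without replicate 5, and 5 without either replicate 2 or replicate 4. For 24 h, leaving out 22 °C replicate 4 gave 28, and 8 were left on dropping 22 °C replicate 1 or 5 or 24 h replicate 1. Dropping 22 °C replicate 2 left 9. In BAT the 6 h count was 16 without BAT 6 h replicate 1, and the other BAT counts moved less. Several BAT calls that held with any library left out were lost in the edgeR fit of all 30 libraries. They were those of Acad11 and Hadh after 6 h (adjusted p = 0.107 and 0.0964), Crat and Acaa2 after 24 h (0.0993 and 0.373) and Cpt2, Slc25a20 and Abcd3 between the times (0.136, 0.522 and 0.14). Cpt1a, Crat and Hsd17b4 were called after 6 h in iWAT whichever library was left out. Cpt1b, Slc25a20, Hadha, Etfdh, Hsd17b4, Acaa1b, Abcd3 and Hacl1 were so called after 24 h, but on log2(FPKM + 1) Acaa1b was not (limma, adjusted p = 0.0557). On log2(FPKM + 1) the 6 h split in iWAT was 4 higher and 3 lower, while all genes shifted by a median of -0.15 and the members' median was 0.17. With upper-quartile factors it was 5 higher and 2 lower.

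**Figure D2:**
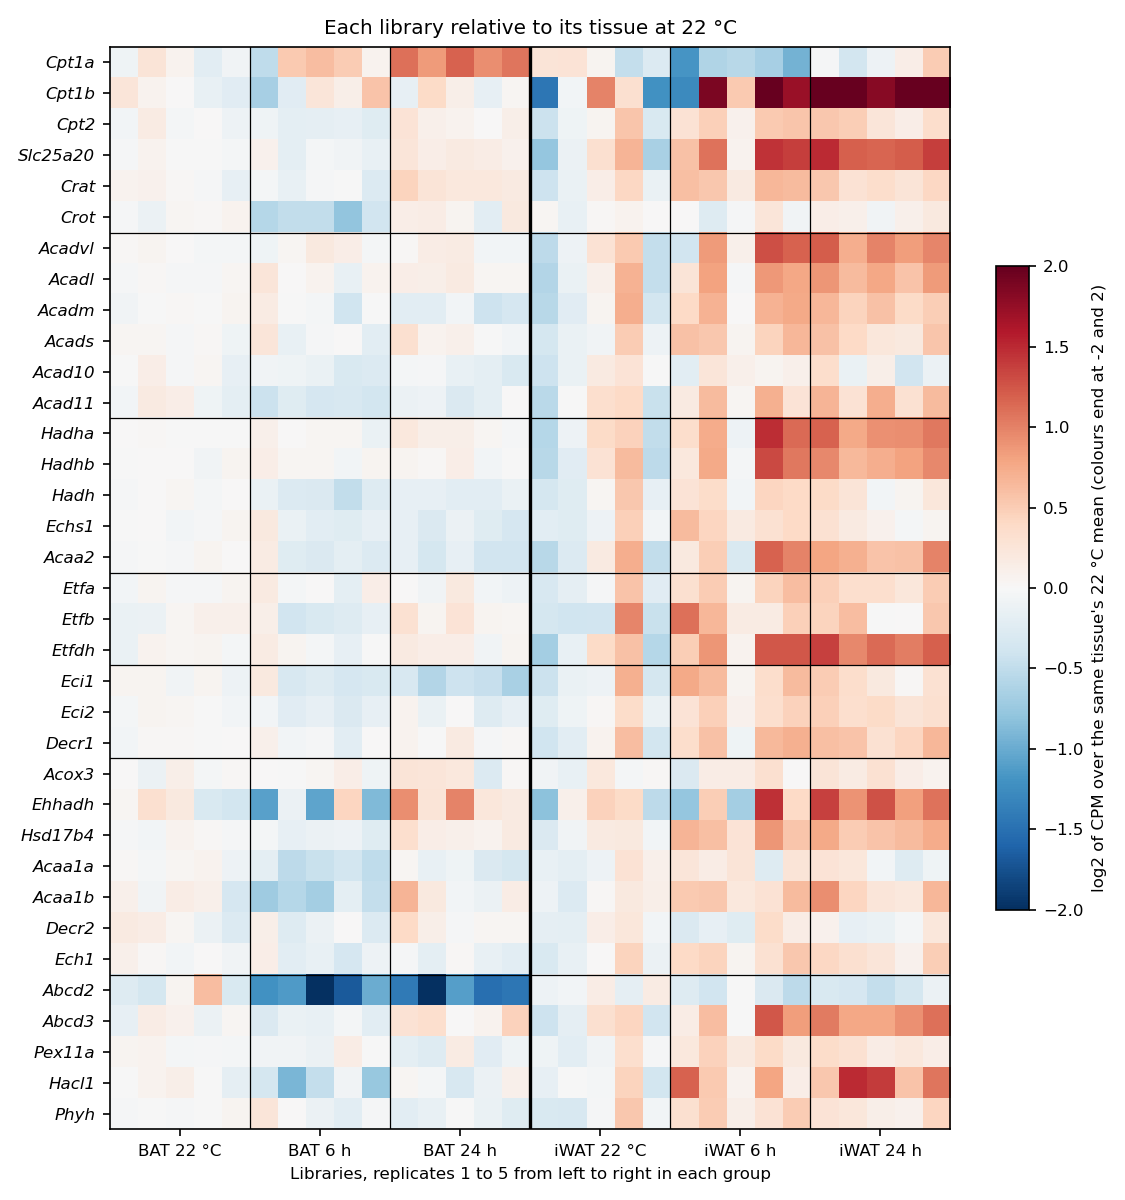
Each of the 30 libraries (columns, replicates 1 to 5 from left to right in each group, BAT left of the thick line and iWAT right of it) relative to the mean of its own tissue at 22 °C, as log2 of CPM, for the 35 genes (rows, lines between roles). iWAT is red in most rows after cold, with 6 h replicate 3 paler, BAT is pale or blue after 6 h, and Abcd2 is dark blue in cold BAT.

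Carnitine palmitoyltransferase 1 is the entry step, with Cpt1a the isoform known from liver and Cpt1b the isoform known from muscle and brown fat. In BAT Cpt1a was at 23.7, 29.96, 26.3, 21.7 and 23.9 CPM at 22 °C. In cold BAT Cpt1a was at 17.7, 36.2, 38.5, 35.5 and 26.4 CPM after 6 h and at 53.9, 45.4, 56.8, 47.9 and 52.96 CPM after 24 h. Cpt1a in iWAT was at 49.2, 49.9, 42.7, 29.7 and 34.2 CPM at 22 °C. In cold iWAT Cpt1a was at 18.3, 27.01, 28.05, 26.1 and 21.3 CPM after 6 h and at 40.6, 32.01, 38.4, 44.9 and 58.3 CPM after 24 h. Every 24 h BAT library lay above every BAT library of the other groups, and every 6 h iWAT library lay below every 22 °C iWAT library. Cpt1a rose in BAT after 24 h (log2 fold change 1.01 ± 0.16, adjusted p = 0.00027) and also between 6 h and 24 h (log2 fold change 0.73 ± 0.16, adjusted p = 0.00695). It fell in iWAT after 6 h (log2 fold change -0.80 ± 0.18, adjusted p = 0.00779; adjusted p up to 0.0259 with any 1 of the 10 libraries left out) and stood at a difference of 0.04 ± 0.17 after 24 h. At 22 °C it was lower in BAT (log2 fold change -0.71 ± 0.18, adjusted p = 0.000861), and no difference between the tissues passed after 6 h (0.36 ± 0.18) or 24 h (0.26 ± 0.17).

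Cpt1b showed another pattern. Cpt1b in BAT was at 19.7, 17.6, 16.8, 15.03 and 14.3 CPM at 22 °C. In cold BAT Cpt1b was at 10.5, 14.3, 19.7, 18.03 and 24.8 CPM after 6 h and at 14.9, 21.8, 18.1, 14.9 and 17.1 CPM after 24 h. Cpt1b in iWAT was at 0.451, 1.18, 2.44, 1.53 and 0.529 CPM at 22 °C. In cold iWAT Cpt1b was at 0.507, 4.52, 1.77, 6.45 and 4.07 CPM after 6 h and at 5.595, 5.78, 4.32, 6.14 and 5.17 CPM after 24 h. The BAT groups overlapped, and in iWAT all 24 h libraries lay above all 22 °C libraries. It rose in iWAT after 24 h (log2 fold change 2.13 ± 0.52, adjusted p = 0.00877) and after 6 h (log2 fold change 1.47 ± 0.51, adjusted p = 0.0483). The call of Cpt1b was lost without iWAT 22 °C replicate 1, 2 or 5 or iWAT 6 h replicate 2, 4 or 5, adjusted p of 0.0917 to 0.128. In BAT its differences were 0.06 ± 0.18 and 0.04 ± 0.18. At 22 °C it was 13.7-fold higher in BAT (log2 fold change 3.77 ± 0.42, adjusted p = 8.32e-09). In GENCODE M21 81.4% of the exon bases of Cpt1b are shared with Gm44502 on the same strand, which had 0 counts in all 30 libraries, so the level of Cpt1b may rest on the 628 bases that are not shared. Whether reads in shared bases were counted is not given in the sources used here. BAT muscle markers summed to 368 to 10262 CPM at 22 °C, 94.4 to 1861 CPM after 6 h and 80.2 to 5400 CPM after 24 h, and their part in the level of Cpt1b was not tested.

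The carrier Slc25a20 was the shuttle gene with the largest called rise in iWAT after Cpt1b. Slc25a20 in BAT was at 984, 1043, 998, 992 and 976 CPM at 22 °C. In cold BAT Slc25a20 was at 1063, 871, 970.1, 949 and 902 CPM after 6 h and at 1187, 1101, 1128, 1104 and 1061 CPM after 24 h. Slc25a20 in iWAT was at 78.97, 124, 168, 215 and 85.8 CPM at 22 °C. In cold iWAT Slc25a20 was at 203, 284, 141, 366 and 349.9 CPM after 6 h and at 378, 306, 302, 312 and 352 CPM after 24 h. The 24 h iWAT libraries lay within a narrow band above all 22 °C libraries, while the 6 h libraries spread over both. In iWAT it rose after 24 h (log2 fold change 1.28 ± 0.27, adjusted p = 0.00414) and after 6 h (log2 fold change 0.98 ± 0.27, adjusted p = 0.0196). For Slc25a20 the 6 h call was lost without iWAT 22 °C replicate 1 or iWAT 6 h replicate 5, adjusted p of 0.0521 to 0.0534. In BAT it rose between 6 h and 24 h (log2 fold change 0.23 ± 0.06, adjusted p = 0.014), with 0.14 ± 0.06 against 22 °C. It was 7.43-fold higher in BAT at 22 °C (log2 fold change 2.89 ± 0.22, adjusted p = 5.92e-12).

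The promoter windows of these genes are shown because Cpt1a and Slc25a20, consecutive steps of the shuttle, moved in opposite directions in iWAT after 6 h. Sequences are from RefSeq on GRCm38.p6, a different assembly from the GRCm39 of the counts, and run from 250 bases before the gene's start to 50 after it, 5′ to 3′ on the gene's strand. Capitals mark the nuclear receptor core AGGTCA, the CCAAT box and the GC box GGGCGG on either strand. The window of Cpt1a is chr19:3323051-3323350, + strand and that of Slc25a20 is chr9:108661886-108662185, + strand.
Cpt1a: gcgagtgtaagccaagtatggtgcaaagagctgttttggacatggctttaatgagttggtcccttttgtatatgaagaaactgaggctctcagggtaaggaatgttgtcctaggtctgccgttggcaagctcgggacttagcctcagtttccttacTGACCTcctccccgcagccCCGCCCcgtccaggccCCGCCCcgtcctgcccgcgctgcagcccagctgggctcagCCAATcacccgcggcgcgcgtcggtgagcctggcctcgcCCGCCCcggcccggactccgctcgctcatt
Slc25a20: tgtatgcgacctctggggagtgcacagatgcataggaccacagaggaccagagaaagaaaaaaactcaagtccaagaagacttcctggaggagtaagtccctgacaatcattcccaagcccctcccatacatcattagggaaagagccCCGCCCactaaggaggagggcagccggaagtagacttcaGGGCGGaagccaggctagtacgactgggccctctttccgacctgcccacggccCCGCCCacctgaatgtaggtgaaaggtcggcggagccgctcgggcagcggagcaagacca
The Cpt1a window holds 1 nuclear receptor core on the other strand, 1 CCAAT box and 3 GC boxes, and the Slc25a20 window holds 3 GC boxes and neither of the others. Windows were found for 29 of the 35 members, 30 in all since Abcd3 has a pair. The GC box was in 22 of the 30 member windows and in 35.7% of the table's 32851 windows. The CCAAT box was in 12 and in 37.4% of all, and the nuclear receptor core in 5 and in 16.3%. The cAMP response element TGACGTCA was in 0 member windows and in 1.79% of all. The extended core TNAAGGTCA, which contains the nuclear receptor core, was in 0 and in 1.28%, and the direct repeat AGGNCANAGGNCA was in 0 and in 0.381%. A window without a match says only that these letters are not in these 300 bases.

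Cpt2, Crat and Crot complete the shuttle. Cpt2, on the inner membrane, was at 573, 668, 582, 595 and 558 CPM in BAT at 22 °C. In cold BAT Cpt2 was at 558, 518, 528, 531 and 501 CPM after 6 h and at 718, 641, 622, 598 and 649 CPM after 24 h. All 24 h libraries lay above all 6 h libraries, and it rose between these times (log2 fold change 0.29 ± 0.06, adjusted p = 0.00585). Its fall after 6 h against 22 °C (log2 fold change -0.19 ± 0.06, adjusted p = 0.0363) was lost without BAT 22 °C replicate 2, 3 or 4 or BAT 6 h replicate 4 or 5, adjusted p of 0.0525 to 0.101. In iWAT it ran 153 to 301 CPM at 22 °C, 218 to 302 after 6 h and 225 to 299 after 24 h, with no call.

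Crat, carnitine acetyltransferase, was at 998, 1007, 974, 936 and 853 CPM in BAT at 22 °C. In cold BAT Crat was at 926, 857, 939, 951 and 785 CPM after 6 h and at 1298, 1135, 1099, 1107 and 1081 CPM after 24 h. Crat in iWAT was at 245, 296, 356, 433 and 297 CPM at 22 °C. In cold iWAT Crat was at 494, 475, 368, 514 and 503 CPM after 6 h and at 472, 398, 415, 391 and 434 CPM after 24 h. It rose in BAT after 24 h (log2 fold change 0.25 ± 0.07, adjusted p = 0.0154, and log2 fold change 0.36 ± 0.07, adjusted p = 0.00297 between 6 h and 24 h) and in iWAT after 6 h (log2 fold change 0.51 ± 0.13, adjusted p = 0.0155), where the lowest 6 h library, replicate 3, lay within the 22 °C range. Crot, the peroxisomal carnitine octanoyltransferase, was at 65.5, 61.7, 68.9, 67.99 and 70.1 CPM in BAT at 22 °C. In cold BAT Crot was at 45.03, 47.4, 47.3, 38.8 and 51.2 CPM after 6 h and at 73.1, 73.8, 69.6, 57.8 and 76.8 CPM after 24 h. All 6 h libraries lay below all others of BAT: it fell after 6 h (log2 fold change -0.55 ± 0.08, adjusted p = 0.000152) and rose again by 24 h (log2 fold change 0.61 ± 0.08, adjusted p = 0.000235). In iWAT it ran 58.01 to 67.2 CPM at 22 °C, 53.8 to 75.9 after 6 h and 61.1 to 73.5 after 24 h, with no call. After 6 h Crot was lower in BAT than in iWAT with no overlap (log2 fold change -0.47 ± 0.08, adjusted p = 1.79e-05). At 22 °C its difference of 0.06 ± 0.08 was not called and turned to -0.51 on log2(FPKM + 1), where it was called.

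**Figure D3:**
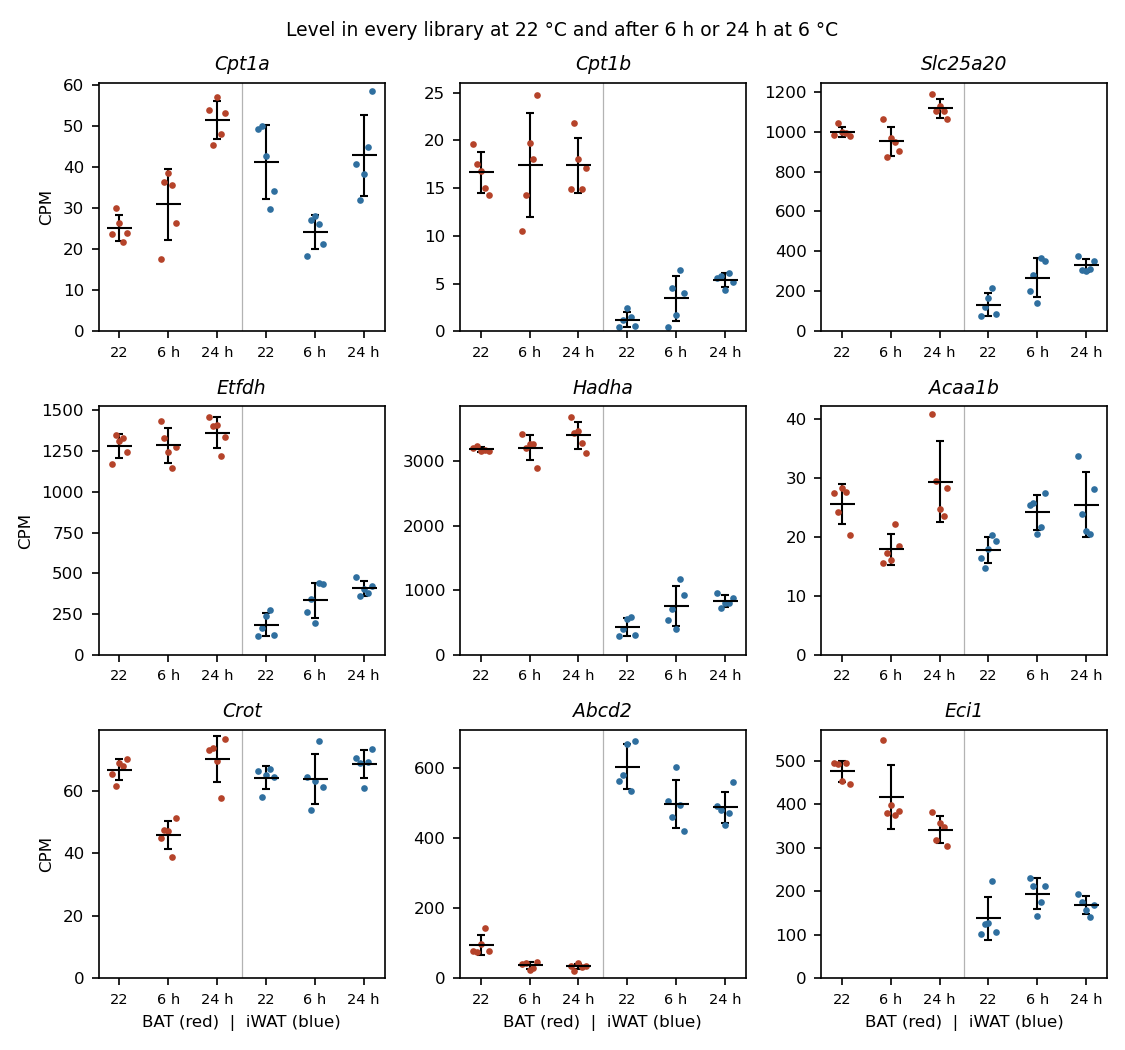
Level in CPM (axes from 0) of 9 genes in every library, BAT (red) and iWAT (blue) each at 22 °C, after 6 h and after 24 h at 6 °C, with the mean and SD of 5 libraries in black. Cpt1a is lowest in iWAT and mid-range in BAT at 6 h, Crot dips in BAT at 6 h only, and Abcd2 is low in cold BAT.

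The acyl-CoA dehydrogenases open each turn of mitochondrial beta-oxidation and are told apart by chain length, very long for Acadvl, long for Acadl, medium for Acadm and short for Acads. Of these and the related Acad10 and Acad11, 1 was called higher in iWAT after 6 h and 3 after 24 h, while in BAT 1 was lower at each time. Of all genes 12.9% and 12.8% were called higher in iWAT, and 10.2% and 10.4% lower in BAT. Acadvl was at 1374, 1413, 1363, 1318 and 1323 CPM in BAT at 22 °C. In cold BAT Acadvl was at 1286, 1400.4, 1550.4, 1492 and 1315 CPM after 6 h and at 1379, 1501, 1520.4, 1309 and 1314 CPM after 24 h. Acadvl in iWAT was at 129, 173, 228, 268 and 134 CPM at 22 °C. In cold iWAT Acadvl was at 143, 335, 199, 456 and 420.0 CPM after 6 h and at 429.9, 308, 369, 332 and 365 CPM after 24 h. Its BAT groups overlapped, and all 24 h iWAT libraries lay above all 22 °C ones. It rose in iWAT after 24 h (log2 fold change 0.94 ± 0.27, adjusted p = 0.0217). The call of Acadvl was lost without iWAT 22 °C replicate 1 or 5 or iWAT 24 h replicate 1, adjusted p of 0.0517 to 0.061. A stretch of 1151 of the 2686 exon bases of Acadvl overlaps Dvl2 on the other strand in GENCODE M21, and since the strand setting of the counting is not given in the sources used here, reads of the genes may not be told apart there. Dvl2 had 167 to 570 counts a library.

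Acadl was at 2769.8, 2852, 2759.8, 2772 and 2901 CPM in BAT and at 384, 526, 618, 929.9 and 413 CPM in iWAT at 22 °C, 4.89-fold higher in BAT. In iWAT it ran 564 to 1048 CPM after 6 h and 856 to 1056 after 24 h, and it rose after 24 h (log2 fold change 0.73 ± 0.22, adjusted p = 0.0231). The call of Acadl was lost without iWAT 22 °C replicate 1, 2 or 5 or iWAT 24 h replicate 1, adjusted p of 0.0509 to 0.0634. Acadm was at 2999.8, 3106, 3194, 3133 and 3245 CPM in BAT and at 474, 594, 724, 1147 and 537 CPM in iWAT at 22 °C, 4.51-fold higher in BAT. In BAT it fell after 24 h to 2363 to 3011 CPM (log2 fold change -0.26 ± 0.09, adjusted p = 0.0385). The call of Acadm was lost without BAT 22 °C replicate 2, 3, 4 or 5 or BAT 24 h replicate 1, 2, 4 or 5, adjusted p of 0.0531 to 0.0939. In both genes the highest 22 °C iWAT library, replicate 4, reached the range of the cold iWAT libraries.

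Acads rose in iWAT after 6 h, at 140.1 to 212 CPM against 105 to 191 at 22 °C (log2 fold change 0.45 ± 0.14, adjusted p = 0.035). The call of Acads was lost without iWAT 22 °C replicate 1, 2, 3 or 5 or iWAT 6 h replicate 1, 2, 4 or 5, adjusted p of 0.0558 to 0.0951. Acad10 had no call for cold in either tissue, with log2 differences of -0.18 ± 0.07 and -0.15 ± 0.07 in BAT and 0.05 ± 0.14 and -0.02 ± 0.14 in iWAT. Acad11 was at 351, 413, 399, 346 and 319 CPM in BAT at 22 °C. In cold BAT Acad11 was at 270.2, 310.2, 288, 293 and 284 CPM after 6 h and at 338, 339, 301, 319.7 and 367 CPM after 24 h. All its 6 h libraries lay below all 22 °C libraries, and it fell (log2 fold change -0.35 ± 0.08, adjusted p = 0.00341). Acad11 in iWAT was at 101, 146, 187, 195 and 108 CPM at 22 °C. In cold iWAT Acad11 was at 168, 228, 152, 242 and 179 CPM after 6 h and at 236, 179.8, 243, 181 and 229 CPM after 24 h, with a rise after 24 h (log2 fold change 0.52 ± 0.18, adjusted p = 0.0487) that was lost without iWAT 22 °C replicate 1, 2 or 5 or iWAT 24 h replicate 1, 3, 4 or 5, adjusted p of 0.051 to 0.125.

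Hadha and Hadhb are the subunits of the mitochondrial trifunctional protein, which carries out the remaining steps for long chains. Hadha was at 3196, 3235, 3150.4, 3179 and 3152 CPM in BAT at 22 °C. In cold BAT Hadha was at 3427, 3199, 3263, 3265 and 2892 CPM after 6 h and at 3676, 3434, 3470.2, 3286 and 3125 CPM after 24 h. Hadha in iWAT was at 286, 395, 555, 584 and 301 CPM at 22 °C. In cold iWAT Hadha was at 539, 707, 396, 1176 and 934 CPM after 6 h and at 964, 719, 800.3, 807 and 883 CPM after 24 h. Its iWAT libraries at 24 h all lay above those at 22 °C, and its BAT groups overlapped. Hadhb was at 4206, 4290.2, 4289, 4036 and 4407 CPM in BAT at 22 °C. In cold BAT Hadhb was at 4656, 4385, 4372, 4076 and 4389 CPM after 6 h and at 4400.0, 4314, 4669, 4105 and 4214 CPM after 24 h. Hadhb in iWAT was at 408, 513, 733, 931 and 418 CPM at 22 °C. In cold iWAT Hadhb was at 698, 1018, 586, 1493 and 1249.6 CPM after 6 h and at 1173, 939, 997, 1049 and 1165 CPM after 24 h. In both subunits 6 h replicate 4 was the highest and 22 °C replicates 1 and 5 were the lowest of the iWAT libraries.

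Hadha rose in iWAT after 24 h (log2 fold change 0.96 ± 0.26, adjusted p = 0.0144; adjusted p up to 0.0436 with any 1 of the 10 libraries left out) and after 6 h (log2 fold change 0.80 ± 0.26, adjusted p = 0.035). For Hadha the 6 h call was lost without iWAT 22 °C replicate 1, 2 or 5 or iWAT 6 h replicate 2, 4 or 5, adjusted p of 0.0523 to 0.0982. Hadhb rose after 24 h (log2 fold change 0.81 ± 0.25, adjusted p = 0.0294), a call lost without iWAT 22 °C replicate 1, 2 or 5 or iWAT 24 h replicate 1 or 5, adjusted p of 0.0584 to 0.0797, and after 6 h (log2 fold change 0.73 ± 0.25, adjusted p = 0.047). The call of Hadhb was lost without iWAT 22 °C replicate 1, 2, 3 or 5 or iWAT 6 h replicate 2, 4 or 5, adjusted p of 0.0509 to 0.125. In BAT the differences were -0.00 ± 0.05 and 0.08 ± 0.05 for Hadha and 0.03 ± 0.05 and 0.01 ± 0.05 for Hadhb. At 22 °C BAT was 7.504-fold higher for Hadha and 7.07-fold higher for Hadhb. The genes lie head to head, and their RefSeq promoter windows share 228 of 300 bases, with 273 bases between the start sites. In iWAT this pair moved together, but all 17 genes listed as mitochondrial lay above 0 there after 6 h, and 16 after 24 h. The part of the shared bases in this was not tested. The window of Hadhb, chr5:30155003-30155302, + strand on GRCm38.p6, is printed with the bases shared with the window of Hadha in capitals.
Hadhb: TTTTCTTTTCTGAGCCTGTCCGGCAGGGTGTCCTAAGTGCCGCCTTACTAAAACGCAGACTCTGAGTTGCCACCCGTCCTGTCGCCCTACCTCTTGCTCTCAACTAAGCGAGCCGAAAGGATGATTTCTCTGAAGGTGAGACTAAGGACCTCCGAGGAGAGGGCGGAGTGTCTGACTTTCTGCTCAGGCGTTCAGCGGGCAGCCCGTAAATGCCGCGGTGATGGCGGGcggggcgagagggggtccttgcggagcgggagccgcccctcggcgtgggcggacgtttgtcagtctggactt
The Hadhb window holds 4 GC boxes and the Hadha window holds 1, which lies in the shared bases.

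Hadh and Echs1 serve medium and short chains as hydroxyacyl-CoA dehydrogenase and enoyl-CoA hydratase, and Acaa2 is the matching thiolase. Hadh was at 1435, 1462, 1485, 1415 and 1458 CPM in BAT at 22 °C. In cold BAT Hadh was at 1325, 1202, 1187, 1033 and 1212 CPM after 6 h and at 1299, 1294, 1250.5, 1259.6 and 1317 CPM after 24 h. Both cold groups lay wholly below 22 °C, and it fell after 6 h (log2 fold change -0.30 ± 0.06, adjusted p = 0.00161) and after 24 h (log2 fold change -0.19 ± 0.06, adjusted p = 0.0253). For Hadh the 24 h call was lost without BAT 22 °C replicate 2 or 3 or BAT 24 h replicate 1 or 3, adjusted p of 0.0512 to 0.0592. In iWAT it ran 377 to 695 CPM at 22 °C, 462 to 644 after 6 h and 462 to 623 after 24 h, with no call.

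Acaa2 was at 1855, 1889.7, 1862, 1964 and 1907 CPM in BAT at 22 °C. In cold BAT Acaa2 was at 2124, 1599, 1557, 1655 and 1571 CPM after 6 h and at 1686, 1492, 1690.4, 1460.1 and 1453 CPM after 24 h. Acaa2 in iWAT was at 145, 176, 241, 351 and 151 CPM at 22 °C. In cold iWAT Acaa2 was at 243, 298, 172, 484 and 421 CPM after 6 h and at 366, 348, 315, 320.1 and 425 CPM after 24 h. All 24 h BAT libraries lay below all 22 °C libraries, and 6 h replicate 1 stood above both groups. It fell in BAT after 24 h (log2 fold change -0.30 ± 0.08, adjusted p = 0.00993; adjusted p up to 0.0272 with any 1 of the 10 libraries left out), a call lost in the fit of all 30 libraries (adjusted p = 0.373), while in iWAT its differences of 0.58 ± 0.26 and 0.72 ± 0.26 were not called. Its excess in BAT at 22 °C, 8.91-fold, was the largest among the mitochondrial genes. Echs1 was at 719, 662, 742, 679 and 637 CPM in BAT after 24 h, against 804, 814, 777, 798 and 842 CPM at 22 °C, with no overlap and a fall (log2 fold change -0.25 ± 0.07, adjusted p = 0.0238) that was lost without BAT 22 °C replicate 5 or BAT 24 h replicate 2 or 5, adjusted p of 0.0505 to 0.0599. In iWAT it rose after 6 h to 380.4 to 521 CPM, against 285 to 471 at 22 °C (log2 fold change 0.38 ± 0.13, adjusted p = 0.0453). The call of Echs1 was lost without iWAT 22 °C replicate 1, 2, 3 or 5 or iWAT 6 h replicate 1, 2, 4 or 5, adjusted p of 0.0578 to 0.115.

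The electron transfer flavoprotein, subunits Etfa and Etfb, hands electrons to Etfdh in the inner membrane. Etfdh was at 1171, 1349.7, 1310.5, 1333 and 1246 CPM in BAT at 22 °C. In cold BAT Etfdh was at 1438, 1332, 1245, 1148 and 1273 CPM after 6 h and at 1457, 1402, 1409.8, 1219.7 and 1334 CPM after 24 h. Etfdh in iWAT was at 115, 167, 241, 278 and 124 CPM at 22 °C. In cold iWAT Etfdh was at 261, 341, 194, 439.8 and 438 CPM after 6 h and at 479, 359.7, 406, 377 and 425 CPM after 24 h. The BAT groups overlapped, and in iWAT the lowest 24 h library lay above the highest 22 °C library. It had the largest rise among the mitochondrial genes in iWAT, after 24 h (log2 fold change 1.13 ± 0.25, adjusted p = 0.00498; adjusted p up to 0.0156 with any 1 of the 10 libraries left out) and after 6 h (log2 fold change 0.83 ± 0.25, adjusted p = 0.0254). For Etfdh the 6 h call was lost without iWAT 22 °C replicate 1, 2 or 5 or iWAT 6 h replicate 4 or 5, adjusted p of 0.0564 to 0.0685.

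Etfa was at 1427, 1537, 1464, 1455 and 1548 CPM in BAT and at 323, 354, 395, 598 and 343 CPM in iWAT at 22 °C, 3.69-fold higher in BAT. No call was made for cold, with differences of 0.00 ± 0.07 and -0.02 ± 0.07 in BAT and 0.38 ± 0.15 and 0.37 ± 0.15 in iWAT. Etfb was at 34.3, 34.8, 38.7, 40.4 and 40.7 CPM in BAT and at 13.4, 12.9, 13.1, 33.6 and 12.6 CPM in iWAT at 22 °C. In iWAT replicate 4 stood far above the other 22 °C libraries. Etfb rose in BAT between 6 h and 24 h (log2 fold change 0.33 ± 0.09, adjusted p = 0.0218). The call of Etfb was lost without BAT 6 h replicate 2 or BAT 24 h replicate 1 or 3, adjusted p of 0.0525 to 0.0554. In GENCODE M21 617 of its 1164 exon bases are shared with Gm45233 on the same strand, which had at most 1 count in a library, so its level is uncertain in the way described for Cpt1b.

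Eci1, Eci2 and Decr1 are the isomerases and the reductase that bring double bonds of unsaturated fatty acids into the path. Eci1 was at 495, 493, 454, 494 and 446 CPM in BAT at 22 °C. In cold BAT Eci1 was at 548, 379.8, 399, 376 and 384 CPM after 6 h and at 381, 319, 356, 348 and 303 CPM after 24 h. Eci1 in iWAT was at 102, 125, 128, 225 and 108 CPM at 22 °C. In cold iWAT Eci1 was at 232, 213, 143, 175 and 213 CPM after 6 h and at 195, 176, 158, 139.9 and 169 CPM after 24 h. In BAT it had the largest fall among the mitochondrial genes, after 24 h (log2 fold change -0.50 ± 0.10, adjusted p = 0.00131; adjusted p up to 0.00437 with any 1 of the 10 libraries left out), with all 24 h libraries below all 22 °C libraries. The 6 h BAT libraries had a single high value, in replicate 1.

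Eci2 was at 179, 189, 188, 181 and 177 CPM in BAT at 22 °C. In cold BAT Eci2 was at 175, 156, 163, 149 and 163 CPM after 6 h and at 192, 168, 183, 153 and 163 CPM after 24 h. Eci2 in iWAT was at 76.9, 85.5, 91.9, 117 and 83.2 CPM at 22 °C. In cold iWAT Eci2 was at 109, 127, 95.99, 115 and 126 CPM after 6 h and at 126, 115, 119, 109 and 114 CPM after 24 h. BAT at 6 h lay wholly below 22 °C, and the iWAT groups overlapped through 22 °C replicate 4. It fell in BAT after 6 h (log2 fold change -0.20 ± 0.06, adjusted p = 0.035). The call of Eci2 was lost without BAT 22 °C replicate 2, 3 or 4 or BAT 6 h replicate 4, adjusted p of 0.0593 to 0.0866. It rose in iWAT after 6 h (log2 fold change 0.31 ± 0.10, adjusted p = 0.0402), a call lost without iWAT 22 °C replicate 1, 2, 3 or 5 or iWAT 6 h replicate 2, 4 or 5, adjusted p of 0.064 to 0.11, and after 24 h (log2 fold change 0.34 ± 0.10, adjusted p = 0.0261). The call of Eci2 was lost without iWAT 22 °C replicate 1, 2 or 5 or iWAT 24 h replicate 1, adjusted p of 0.0611 to 0.0757. Decr1 was at 1017, 1074, 1071, 1042 and 1060.4 CPM in BAT and at 251, 286, 347, 507 and 255 CPM in iWAT at 22 °C (log2 fold change 1.68 ± 0.15, adjusted p = 7.95e-11), with no call for cold in either tissue.

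In peroxisomes Acox3 is an acyl-CoA oxidase, Ehhadh and Hsd17b4 are bifunctional enzymes and Acaa1a and Acaa1b are thiolases. Of the 7 genes of peroxisomal beta-oxidation 2 were called higher in iWAT after 6 h and 3 after 24 h, and 2 were lower in BAT after 6 h and none after 24 h. Of all genes 12.9% and 12.8% were higher in iWAT, and 10.2% were lower in BAT after 6 h. Hsd17b4 was at 486, 475, 515, 499 and 485 CPM in BAT at 22 °C. In cold BAT Hsd17b4 was at 481, 441, 455, 460.0 and 416 CPM after 6 h and at 621, 539, 528, 516 and 556 CPM after 24 h. Hsd17b4 in iWAT was at 223, 259.6, 307, 309.9 and 261 CPM at 22 °C. In cold iWAT Hsd17b4 was at 437, 413, 327, 499 and 401 CPM after 6 h and at 461, 388, 406, 422 and 454 CPM after 24 h. Both cold groups of iWAT lay wholly above 22 °C. It rose in iWAT after 6 h (log2 fold change 0.59 ± 0.12, adjusted p = 0.00432; adjusted p up to 0.0163 with any 1 of the 10 libraries left out) and after 24 h (log2 fold change 0.63 ± 0.12, adjusted p = 0.0019; adjusted p up to 0.00721 with any 1 of the 10 libraries left out), and in BAT between 6 h and 24 h (log2 fold change 0.29 ± 0.06, adjusted p = 0.00346).

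BAT exceeded iWAT in Hsd17b4 at 22 °C (log2 fold change 0.86 ± 0.09, adjusted p = 4.78e-09) and after 24 h (log2 fold change 0.37 ± 0.09, adjusted p = 0.000929). Between the tissues the sign turned on log2(FPKM + 1) to -0.27 after 6 h, where 0.12 ± 0.09 was not called on counts, and to -0.07 after 24 h. Acox3 had no call for cold. Its difference between BAT and iWAT at 22 °C (log2 fold change 0.24 ± 0.10, adjusted p = 0.0332), a call lost without iWAT 22 °C replicate 1, 2 or 4 or BAT 22 °C replicate 1, 3 or 5, adjusted p of 0.0565 to 0.0886, turned to -0.29 on log2(FPKM + 1).

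Ehhadh, the L-bifunctional enzyme, was at 329.9, 401, 369.7, 259 and 250.3 CPM in BAT at 22 °C. In cold BAT Ehhadh was at 152, 296, 156, 433 and 175 CPM after 6 h and at 611, 386, 643, 377 and 364 CPM after 24 h. Ehhadh in iWAT was at 65.2, 124, 159, 150.2 and 80.2 CPM at 22 °C. In cold iWAT Ehhadh was at 67.8, 163, 72.3, 318 and 152 CPM after 6 h and at 297, 215, 279, 204 and 246 CPM after 24 h. The 6 h groups spread widely, over 152 to 433 CPM in BAT and over 67.8 to 318 CPM in iWAT. It rose in iWAT after 24 h (log2 fold change 1.09 ± 0.35, adjusted p = 0.0346), with no overlap but a call lost without iWAT 22 °C replicate 1, 2 or 5 or iWAT 24 h replicate 1, 3 or 5, adjusted p of 0.057 to 0.0893. In BAT it rose between 6 h and 24 h (log2 fold change 0.97 ± 0.27, adjusted p = 0.0258). The call of Ehhadh was lost without BAT 6 h replicate 3 or 5 or BAT 24 h replicate 1 or 3, adjusted p of 0.0597 to 0.0655.

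Acaa1a was at 107, 102, 108, 110.4 and 97.6 CPM in BAT at 22 °C. In cold BAT Acaa1a was at 91.2, 72.8, 76.8, 81.8 and 73.9 CPM after 6 h and at 108, 94.5, 98.4, 85.5 and 82.6 CPM after 24 h. Acaa1a in iWAT was at 98.9, 95.5, 101, 134 and 117 CPM at 22 °C. In cold iWAT Acaa1a was at 129.6, 121, 130.3, 91.9 and 130.1 CPM after 6 h and at 131, 127, 106, 91.6 and 103 CPM after 24 h. In BAT all 6 h libraries lay below all 22 °C libraries, and the iWAT groups overlapped. It fell in BAT after 6 h (log2 fold change -0.42 ± 0.08, adjusted p = 0.000831; adjusted p up to 0.00306 with any 1 of the 10 libraries left out), and its rise from there to 24 h (log2 fold change 0.24 ± 0.08, adjusted p = 0.0477) was lost without BAT 6 h replicate 2, 3, 4 or 5 or BAT 24 h replicate 1, 2, 3 or 4, adjusted p of 0.0532 to 0.118. After 6 h it was lower in BAT than in iWAT with no overlap (log2 fold change -0.61 ± 0.11, adjusted p = 1.89e-05). At 22 °C its difference between the tissues was not called. It was called lower in BAT there with upper-quartile factors (-0.25) and on log2(FPKM + 1) (-0.63).

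Acaa1b was at 27.5, 24.3, 28.4, 27.6 and 20.3 CPM in BAT at 22 °C. In cold BAT Acaa1b was at 15.7, 17.2, 16.04, 22.3 and 18.5 CPM after 6 h and at 40.9, 29.5, 24.7, 23.6 and 28.4 CPM after 24 h. Acaa1b in iWAT was at 16.5, 14.7, 18.00, 20.4 and 19.4 CPM at 22 °C. In cold iWAT Acaa1b was at 25.5, 25.8, 20.5, 21.7 and 27.5 CPM after 6 h and at 33.8, 23.9, 21.1, 20.6 and 28.3 CPM after 24 h. Cold iWAT lay wholly above 22 °C at both times, and in BAT the 24 h libraries lay wholly above the 6 h libraries. It fell in BAT after 6 h (log2 fold change -0.53 ± 0.14, adjusted p = 0.0119), rose there by 24 h (log2 fold change 0.71 ± 0.14, adjusted p = 0.00346) and rose in iWAT after 24 h (log2 fold change 0.50 ± 0.13, adjusted p = 0.0145) and after 6 h (log2 fold change 0.42 ± 0.14, adjusted p = 0.035). The 6 h call in iWAT was lost without iWAT 22 °C replicate 1, 2 or 3 or iWAT 6 h replicate 1, 2 or 5, adjusted p of 0.0579 to 0.0917. Acaa1a and Acaa1b are near-identical copies, and how reads that match both were counted is not given in the sources used here, so the split between them is uncertain. Between tissues at 22 °C the difference of Acaa1b, 0.53 ± 0.14, was called on counts and turned to -0.07 on log2(FPKM + 1).

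Decr2 and Ech1 handle double bonds, Ech1 in mitochondria as well as peroxisomes. Decr2 was at 71.2, 69.9, 64.9, 58.1 and 52.1 CPM in BAT and at 20.9, 20.7, 26.01, 27.8 and 22.7 CPM in iWAT at 22 °C, 2.68-fold higher in BAT. Ech1 was at 1105, 1047, 994, 1037 and 982 CPM in BAT and at 249, 279, 308, 419 and 285 CPM in iWAT at 22 °C, 3.35-fold higher in BAT. Neither was called for cold in either tissue, and their differences lay between -0.14 and 0.33.

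Abcd2 and Abcd3 are importers of the peroxisome membrane, Abcd2 with a preference for very long and polyunsaturated chains. Abcd2 was at 79.4, 74.5, 98.1, 144 and 76.9 CPM in BAT at 22 °C. In cold BAT Abcd2 was at 41.03, 43.1, 23.4, 29.6 and 47.6 CPM after 6 h and at 35.6, 21.5, 44.01, 33.4 and 34.6 CPM after 24 h. Abcd2 in iWAT was at 562, 580.4, 669, 534 and 676 CPM at 22 °C. In cold iWAT Abcd2 was at 507, 461, 603, 493 and 422 CPM after 6 h and at 491, 481, 436, 472 and 559 CPM after 24 h. Every cold BAT library lay below every 22 °C BAT library, and every BAT library lay below every iWAT library. It was the largest fall in BAT at both times, after 6 h (log2 fold change -1.37 ± 0.22, adjusted p = 0.000298; adjusted p up to 0.00127 with any 1 of the 10 libraries left out) and after 24 h (log2 fold change -1.50 ± 0.22, adjusted p = 0.000129; adjusted p up to 0.000484 with any 1 of the 10 libraries left out). In iWAT the difference was -0.30 ± 0.11 after 6 h, not called, and it fell after 24 h (log2 fold change -0.33 ± 0.11, adjusted p = 0.0455). The call of Abcd2 was lost without iWAT 22 °C replicate 1, 2, 3 or 5 or iWAT 24 h replicate 1, 2, 3 or 4, adjusted p of 0.0615 to 0.108.

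Abcd2 was the member that most set iWAT above BAT, with a log2 difference between BAT and iWAT of -2.67 ± 0.19 at 22 °C, -3.75 ± 0.20 after 6 h and -3.85 ± 0.20 after 24 h. White adipocyte markers, a list of 9 genes with Lep, Retn and Nnat among them, summed to 245.0 to 398 CPM in BAT at 22 °C, 223 to 315 CPM after 6 h and 175 to 254 CPM after 24 h. In iWAT they summed to 2488 to 3545 CPM at 22 °C, 1959 to 4219 CPM after 6 h and 1994 to 2784 CPM after 24 h. Of the 6 tested in BAT none was called after 6 h and 2 were lower after 24 h, where 10.4% of all genes were lower. Their part in the fall of Abcd2 was not tested.

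Abcd3 was at 827, 1027, 985, 851 and 949 CPM in BAT at 22 °C. In cold BAT Abcd3 was at 758, 842, 835, 904 and 802 CPM after 6 h and at 1133, 1170.2, 936, 975 and 1275 CPM after 24 h. Abcd3 in iWAT was at 132, 156, 219.7, 238 and 135 CPM at 22 °C. In cold iWAT Abcd3 was at 196, 270.2, 176, 417 and 316 CPM after 6 h and at 363, 302, 303, 333 and 380.0 CPM after 24 h. Its direction was the opposite of that of Abcd2 in iWAT: it rose after 24 h with no overlap (log2 fold change 0.92 ± 0.21, adjusted p = 0.00716; adjusted p up to 0.0242 with any 1 of the 10 libraries left out) and after 6 h (log2 fold change 0.62 ± 0.21, adjusted p = 0.0467). For Abcd3 the 6 h call was lost without iWAT 22 °C replicate 1, 2 or 5 or iWAT 6 h replicate 2, 4 or 5, adjusted p of 0.0716 to 0.131. In BAT it rose between 6 h and 24 h (log2 fold change 0.40 ± 0.09, adjusted p = 0.00666). At 22 °C it was 5.27-fold higher in BAT.

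Pex11a drives division of peroxisomes, Hacl1 cleaves the product of phytanic acid hydroxylation and Phyh is the hydroxylase. Hacl1 was at 2.89, 3.06, 3.15, 2.89 and 2.59 CPM in BAT at 22 °C. In cold BAT Hacl1 was at 2.28, 1.55, 2.104, 2.77 and 1.73 CPM after 6 h and at 2.99, 2.84, 2.34, 2.69 and 3.13 CPM after 24 h. Hacl1 in iWAT was at 2.18, 2.43, 2.398, 3.35 and 1.91 CPM at 22 °C. In cold iWAT Hacl1 was at 5.55, 3.53, 2.57, 4.23 and 2.68 CPM after 6 h and at 3.58, 6.92, 6.47, 3.65 and 5.17 CPM after 24 h. All 24 h iWAT libraries lay above all 22 °C ones, at levels that averaged between 0.349 and 1.21 FPKM over the 6 groups. It rose in iWAT after 24 h (log2 fold change 1.06 ± 0.24, adjusted p = 0.00668; adjusted p up to 0.0214 with any 1 of the 10 libraries left out), and its fall in BAT after 6 h (log2 fold change -0.50 ± 0.17, adjusted p = 0.0441) was lost without BAT 22 °C replicate 1, 2, 3, 4 or 5 or BAT 6 h replicate 2, 3 or 5, adjusted p of 0.0517 to 0.0905. In GENCODE M21 31.1% of its exon bases are shared with Gm49387 on the same strand, which had 0 counts.

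Phyh was at 687, 701, 689.9, 699 and 729.6 CPM in BAT and at 173, 170.5, 211, 309 and 206 CPM in iWAT at 22 °C, 3.28-fold higher in BAT, and was not called for cold. Pex11a was at 88.5, 89.3, 82.7, 83.6 and 82.6 CPM in BAT and at 58.9, 53.9, 59.2, 79.02 and 61.6 CPM in iWAT at 22 °C. It rose in iWAT after 6 h (log2 fold change 0.27 ± 0.09, adjusted p = 0.0473). The call of Pex11a was lost without iWAT 22 °C replicate 1, 2, 3 or 5 or iWAT 6 h replicate 2, 4 or 5, adjusted p of 0.0618 to 0.126. Its excess in BAT at 22 °C (log2 fold change 0.45 ± 0.09, adjusted p = 7.20e-05) turned to -0.14 on log2(FPKM + 1).

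The difference of the cold response between the tissues was tested directly, as the change in BAT minus the change in iWAT. After 6 h 1 member was called higher and 16 lower, or 48.6% where 9.4% of all genes were called. After 24 h 1 was higher and 12 lower, or 37.1% where 7.81% were called. The median difference was -0.59 after 6 h and -0.45 after 24 h over the 35 genes, and -0.02 and -0.01 over all genes. Cpt1a was the member called higher at both times, with differences of 1.07 ± 0.25 (adjusted p = 0.008) and 0.97 ± 0.25 (adjusted p = 0.0159).

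After 6 h the members with the largest differences below 0 that were called were Hacl1 (-1.08 ± 0.30, adjusted p = 0.0242), Abcd2 (-1.08 ± 0.26, adjusted p = 0.00903), Slc25a20 (-1.07 ± 0.29, adjusted p = 0.0217), Acaa1b (-0.96 ± 0.21, adjusted p = 0.00426) and Etfdh (-0.85 ± 0.27, adjusted p = 0.0468). After 24 h they were Cpt1b (-2.09 ± 0.55, adjusted p = 0.0175), Abcd2 (-1.18 ± 0.26, adjusted p = 0.00601), Slc25a20 (-1.14 ± 0.29, adjusted p = 0.0172), Hacl1 (-1.13 ± 0.30, adjusted p = 0.0194) and Etfdh (-1.05 ± 0.27, adjusted p = 0.017). By class, 4 of 6 shuttle genes, 6 of 17 mitochondrial genes and 6 of 12 peroxisomal genes were called lower after 6 h, and 2, 7 and 3 after 24 h, where 6.03% and 4.85% of all genes were called lower. With each of the 20 libraries left out in turn, 8 of the 17 calls at 6 h and 6 of the 13 at 24 h were made every time. At 6 h these were Cpt1a, Slc25a20, Crat, Crot, Eci2, Hsd17b4, Acaa1b and Abcd2, and at 24 h Cpt1a, Cpt1b, Slc25a20, Etfdh, Abcd2 and Hacl1. Of these, at 6 h, Slc25a20 was not called in a fit of the groups compared alone (edgeR, adjusted p = 0.063) and Crot was not called on log2(FPKM + 1) (limma, adjusted p = 0.0631). At 6 h the call of Hacl1 was lost without BAT 6 h replicate 2, adjusted p = 0.0503, and that of Etfdh was lost without 15 of the 20 (adjusted p up to 0.0971).

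The number of members called rested on iWAT 22 °C libraries here too, and the shares of all genes called in these refits are again not given. For 6 h, dropping iWAT 22 °C replicate 4 gave 30, replicate 1 gave 9, and replicate 2 or 5 gave 10. Dropping replicate 2 or 5 of iWAT 6 h, or replicate 2 or 3 of BAT 6 h, gave 11. For 24 h, dropping iWAT 22 °C replicate 4 gave 26, replicate 1 gave 6, and replicate 2 or 5 gave 7. BAT 24 h replicate 4 gave 7 as well, and iWAT 24 h replicate 1 gave 8.

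**Figure D4:**
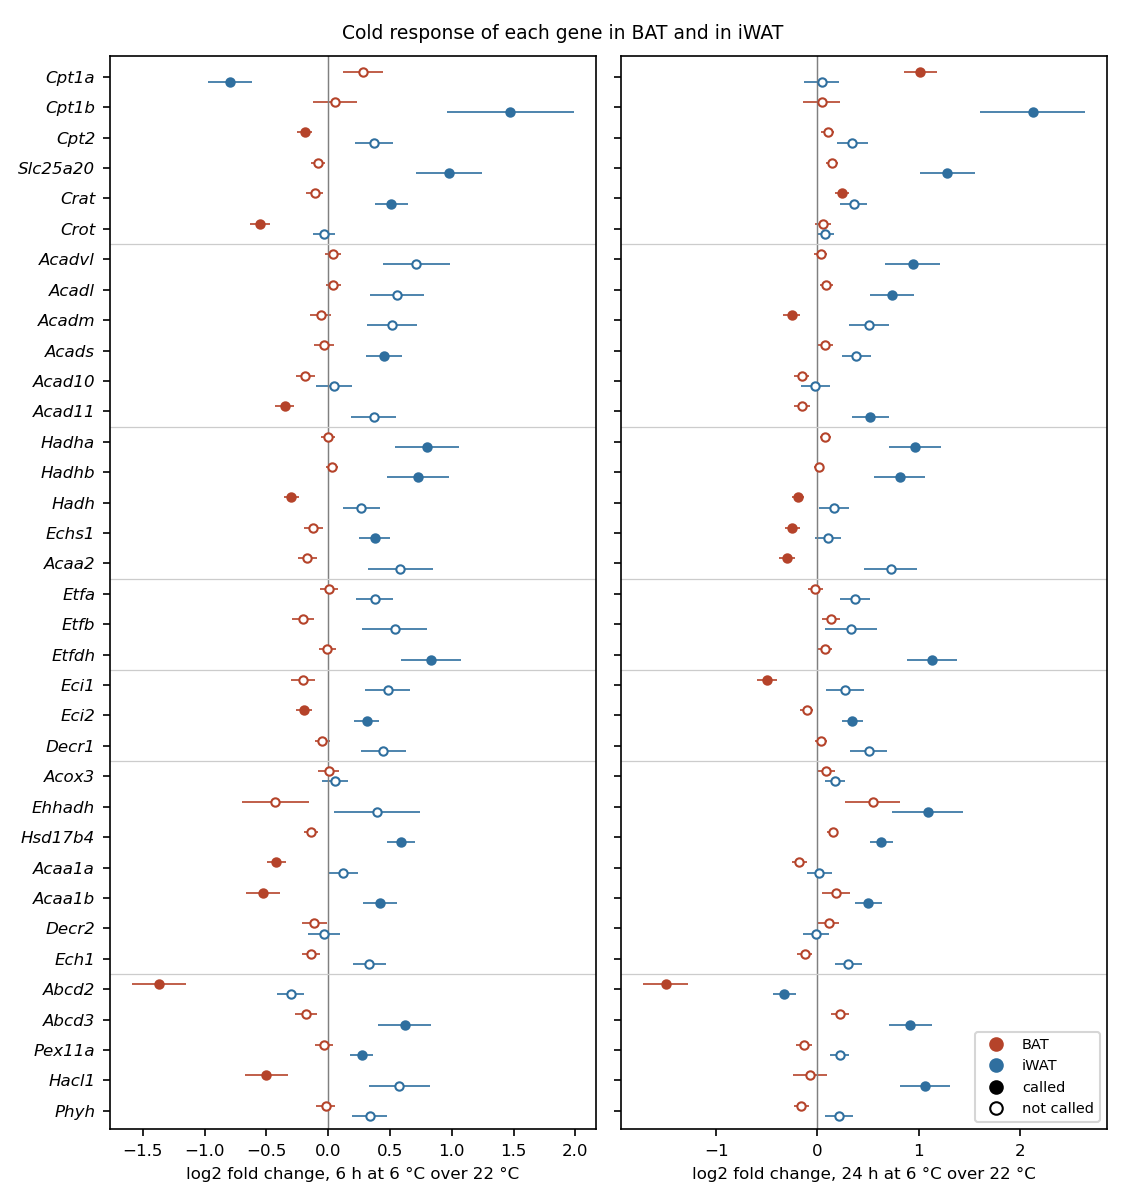
Log2 fold change against 22 °C after 6 h (left panel) and after 24 h (right panel) at 6 °C for each gene, BAT in red above iWAT in blue, with bars of 1 approximate SE. Filled points were called, open points were not, and grey lines separate roles. Most blue points lie right of the red ones, with Cpt1a the exception at both times.

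Other genes of fatty acid oxidation, 81 listed and 80 in the tables, moved as follows. In BAT 17 of 77 tested were called higher and 6 lower after 6 h, where 12.5% of all genes were higher and 10.2% lower. After 24 h 22 were higher and 13 lower in BAT, where 12.8% and 10.4% of all genes were. In iWAT 31 of 78 were higher and 1 lower after 6 h (12.9% and 10.1% of all genes), and 27 higher and 3 lower after 24 h (12.8% and 10.1%). The transcriptional coactivator Ppargc1a, which drives mitochondrial genes, was at 99.0 CPM on average after 6 h and 115 CPM after 24 h in iWAT, against 16.97 CPM at 22 °C (2.52 ± 0.42 and 2.74 ± 0.42, adjusted p = 0.00214 and adjusted p = 0.000781). In BAT it was at 649 CPM after 6 h and 522 CPM after 24 h, against 123 CPM at 22 °C (2.39 ± 0.27 and 2.08 ± 0.26, adjusted p = 1.48e-05 and adjusted p = 3.26e-05).

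Its relative Ppargc1b rose in iWAT (1.63 ± 0.26 and 2.20 ± 0.26) and had the largest called difference between the tissues' responses among these genes at both times (-1.66 ± 0.29 and -2.19 ± 0.29, adjusted p = 0.000835 and adjusted p = 7.92e-05). The orphan receptor Esrrg rose in iWAT after 24 h (1.86 ± 0.45, adjusted p = 0.00805), and its relative Esrrb rose in BAT after 6 h and after 24 h (2.01 ± 0.22 and 2.08 ± 0.22). The very long chain acyl-CoA synthetase Slc27a2 rose in both tissues, by 0.77 ± 0.12 after 6 h and 0.97 ± 0.12 after 24 h in BAT and by 2.29 ± 0.79 and 2.52 ± 0.80 in iWAT. The thioesterase Acot4 rose in iWAT after 6 h (1.17 ± 0.23, adjusted p = 0.00495) and fell in BAT between 6 h and 24 h (-0.65 ± 0.15, adjusted p = 0.0087). In BAT the peroxisomal carrier Slc25a17 rose after 6 h (0.81 ± 0.06, adjusted p = 3.99e-07) and the thioesterase Acot8 after 24 h (0.97 ± 0.10, adjusted p = 4.28e-06).

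Between 6 h and 24 h in BAT, the peroxisomal genes Acox2, Pecr and Pex6 rose, by 1.13 ± 0.27, 0.86 ± 0.16 and 0.69 ± 0.10. For the tissue difference of the response, Nrip1, a corepressor, had values of -1.07 ± 0.27 after 6 h and -0.94 ± 0.27 after 24 h, and Acacb, which makes the malonyl-CoA that blocks carnitine palmitoyltransferase 1, had -1.04 ± 0.32 after 6 h (adjusted p = 0.041). Between the tissues at 22 °C the largest called differences were those of Slc27a2 (5.36 ± 0.70), Esrrb (4.33 ± 0.52) and Ppargc1b (3.45 ± 0.23), higher in BAT, and of the carnitine and organic cation transporter Slc22a4 (-3.37 ± 0.24), lower in BAT. These genes were not refitted with libraries left out.

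The iWAT libraries of a group differed among themselves in these genes more than BAT libraries did. The median coefficient of variation of the 35 genes was 4.85% in BAT and 26.7% in iWAT at 22 °C, 9.45% in BAT and 17.3% in iWAT after 6 h, and 8.59% in BAT and 11.1% in iWAT after 24 h. At 22 °C iWAT replicate 4 was the highest of the group in 30 of 35 genes and replicate 1 the lowest in 23. After 6 h iWAT replicate 3 was the lowest in 24. The members' share of counts was 0.780, 0.953, 1.10, 1.29 and 0.853% in iWAT replicates 1 to 5 at 22 °C, 0.993, 1.23, 0.939, 1.33 and 1.35% after 6 h and 1.39, 1.20, 1.30, 1.19 and 1.36% after 24 h. The widest 95% Wilson interval of these shares, that of 6 h replicate 4, ran 1.326 to 1.334%, for counting error only.

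Brown adipocyte markers (10 genes, among them Ucp1, Cidea and Elovl3) also differed between the iWAT libraries of a group. Their sum was 179, 399, 1087, 1319 and 146 CPM in iWAT replicates 1 to 5 at 22 °C, 1035, 2382, 704, 5244 and 5565 CPM after 6 h, and 4677, 3174, 3057, 3862 and 5113 CPM after 24 h. The 22 °C libraries with the most brown adipocyte marker counts, replicates 3 and 4, had the highest member shares of their group, and 6 h replicates 1 and 3, with the least of theirs, had the lowest. The 24 h libraries with the most, replicates 1 and 5, also had the highest shares of their group. The order did not hold throughout: at 22 °C replicate 1 had more marker counts than replicate 5 and a smaller share, and at 24 h replicate 3 had the lowest marker sum and a middle share, and replicate 4 a middle sum and the lowest share. In BAT the marker sum was 13514 to 16973 CPM at 22 °C, 18531 to 26604 CPM after 6 h and 19232 to 23106 CPM after 24 h, so both cold groups lay above 22 °C with no overlap. Most of the BAT sum at 22 °C was Ucp1, and more brown adipocytes cannot be told apart from more marker RNA per cell. Of the 9 brown adipocyte markers tested, 3 were called higher in iWAT after 6 h and 5 after 24 h, while Zic1 stayed at 0 to 0.0276 CPM in iWAT. Over all genes tested in iWAT, 12.9% were called higher after 6 h and 12.8% after 24 h, and 10.1% were lower at each time. Of 8 macrophage markers 3 were lower after 6 h and none after 24 h, and of 7 endothelial markers 3 and 4 were lower. Of 10 progenitor and fibroblast markers 5 were lower after 6 h and 3 after 24 h, and their sum was 1687 to 2917 CPM after 6 h and 1526 to 2391 CPM after 24 h, against 2597 to 4816 CPM at 22 °C. The part of the makeup of cells in the rise of the members was not tested.

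**Figure D5:**
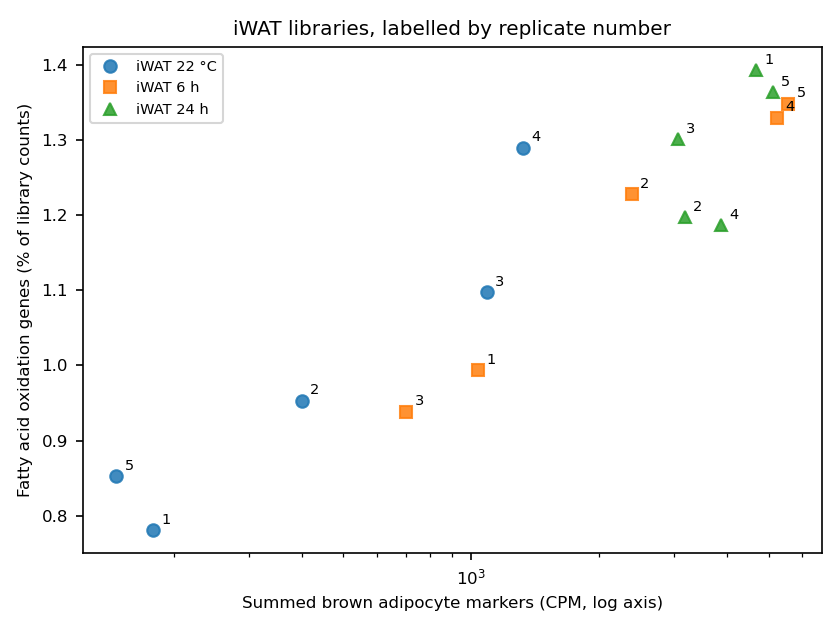
The 15 iWAT libraries by the summed level of 10 brown adipocyte markers (CPM, log axis) and by the share of the library's counts in the 35 genes (%), labelled with the replicate number; 22 °C circles, 6 h squares, 24 h triangles. At 22 °C replicates 3 and 4, with the most marker counts, have the largest shares, 1.10 and 1.29%, while replicate 1 lies right of replicate 5 and below it. After 6 h the shares of replicates 1 and 3, 0.993 and 0.939%, lie lowest and farthest left. At 24 h replicates 1 and 5, with the most marker counts, have the largest shares, 1.39 and 1.36%, while replicate 4 lies right of replicates 2 and 3 and below both.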

How the data were processed

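Polyadenylated RNA of BAT and iWAT was sequenced in 30 libraries, 5 in each of 6 groups. The authors deposited raw counts per gene and FPKM per gene, the counts not normalised and the FPKM scaled by gene length and by the library's fragments. HISAT2, HTSeq and GRCm39 are named in the submitters' processing notes, with no version. The counting mode and the strand setting are not given in the sources used here. Members were matched by symbol among 21652 genes, of which 495 have no symbol.

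Counts were filtered with filterByExpr (minimum count 10), scaled by TMM and tested with edgeR 4.0.16 (R 4.3.3) by its quasi-likelihood test. The 15 libraries of a tissue entered the fits within it, and all 30 entered the fits between tissues. P-values were adjusted by Benjamini-Hochberg over all genes tested, at 0.05. CPM use the TMM-scaled sizes of the 30-library fit. SEs are the log2 fold change over the square root of F. The steps were tested on simulated data. The 35 members and the lists of other genes and markers were chosen with earlier results of these data known. All members could be named. Values by library were given for Cpt1a and Cpt1b, for called members with no overlap between libraries (at most 3 a role) and for those whose response differed between tissues (at most 6), and others were added for completeness. Other pathway genes were named by size, at most 4 a comparison, with a mean of 1 CPM or more in a group. Alternatives were RLE and upper-quartile factors, other filters, a replicate block, other fits, DESeq2 1.42.0, limma 3.58.1 on log2(FPKM + 1) and log2(FPKM + 0.1), and each library left out. The labels do not say whether BAT and iWAT of 1 number share a mouse, so the tissues may share mice. Equal numbers were not taken as pairs, since the labels do not link them, and the fits treat the tissues as independent. Of same-numbered pairs, 10 of 30 within a tissue and 9 of 45 between tissues correlated over 0.1, from -0.487 to 0.458 and from -0.581 to 0.56. Only BAT and iWAT of the same condition could share a mouse. Those pairs ran from -0.534 to 0.062 at 22 °C and from -0.065 to 0.26 after 6 h. After 24 h they ran from 0.082 to 0.342. These values do not settle whether mice were shared.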

Additional observations from a re-analysis of the deposited data

Results flagged for a closer look

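In groups of 5 libraries, 13 of 210 pairs of a member and a group held a library far from the other 4, by Dixon's ratio above 0.71. Chance flags about 1 in 20 groups. Of the 13, 9 were in iWAT and 4 in BAT. iWAT 22 °C replicate 4 held 6 of them, all high: Acads at 190.9 CPM, Echs1 at 471 CPM, Etfa at 598 CPM, Etfb at 33.6 CPM, Eci1 at 225 CPM and Phyh at 309 CPM. BAT 6 h replicate 1 held 3, all high: Echs1 at 919 CPM, Acaa2 at 2124 CPM and Eci1 at 548 CPM. The others were Crat at 1298 CPM in BAT 24 h replicate 1 (high), Crat at 368 CPM in iWAT 6 h replicate 3 (low), Crot at 58.0 CPM in iWAT 22 °C replicate 2 (low) and Acaa1a at 91.9 CPM in iWAT 6 h replicate 4 (low).

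The cold response differed between BAT and iWAT, by the test of the difference itself, for 17 members after 6 h and 13 after 24 h (edgeR, adjusted p under 0.05). Over all genes 9.4% and 7.81% were called. With each library left out in turn, 8 of the 17 calls and 6 of the 13 were made every time. After 6 h the log2 change in BAT minus that in iWAT was 1.07 for Cpt1a, -0.57 for Cpt2, -1.07 for Slc25a20, -0.63 for Crat, -0.53 for Crot, -0.73 for Acad11, -0.57 for Hadh, -0.50 for Echs1 and -0.85 for Etfdh. It was -0.69 for Eci1, -0.52 for Eci2, -0.74 for Hsd17b4, -0.55 for Acaa1a, -0.96 for Acaa1b, -1.08 for Abcd2, -0.81 for Abcd3 and -1.08 for Hacl1. After 24 h it was 0.97 for Cpt1a, -2.09 for Cpt1b, -1.14 for Slc25a20, -0.76 for Acadm, -0.67 for Acad11, -0.88 for Hadha and -1.02 for Acaa2. It was -1.05 for Etfdh, -0.77 for Eci1, -0.45 for Eci2, -0.48 for Hsd17b4, -1.18 for Abcd2 and -1.13 for Hacl1. Both times use the same 22 °C libraries.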

How the results depend on the processing

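With all libraries kept, 3232 of 3465 member results held their direction and side of the threshold, 121 lost and 92 gained the call, and 20 turned; with 1 library left out, 4136 of 4550 held, 313 lost it, 101 gained it and none turned. The counts of members called between tissues lay within 1.5 times the reported ones in every setting run. The 14 members called in iWAT after 6 h became 7 with upper-quartile factors, 7 on log2(FPKM + 1), 7 on log2(FPKM + 0.1), 22 with DESeq2 and 27 in a fit of all 30 libraries. With the replicate block they became 9, and the block moved no other count by over 1.5 times. The 15 after 24 h became 23 in the 30-library fit. Between 24 h and 6 h in iWAT the count of 0 became 1 with DESeq2 and 1 in the 30-library fit. In BAT the 30-library fit called 4 after 6 h, 3 after 24 h and 5 between the times, and the 9 after 6 h became 14 on log2(FPKM + 1) and 14 on log2(FPKM + 0.1). The BAT split after 24 h was 4 higher and 7 lower on log2(FPKM + 1). The 17 members whose response differed between tissues after 6 h became 9 in a fit of the groups compared, 9 on log2(FPKM + 1) and 10 on log2(FPKM + 0.1). Without both iWAT 22 °C libraries that stand apart, replicates 2 and 4, a choice made after seeing the data, the counts were 23 after 6 h and 27 after 24 h in iWAT, and 29 and 24 for the difference of the responses. In each of these the cause was not tested, and the shares of all genes called in these settings are not given here.

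With 1 library left out in turn, the counts ran from 3 to 28 in iWAT after 6 h, 8 to 28 after 24 h and 0 to 0 between them. In BAT they ran from 6 to 16 after 6 h, 6 to 9 after 24 h and 8 to 13 between them. Between tissues they ran from 31 to 32 at 22 °C, 29 to 31 after 6 h and 29 to 30 after 24 h. The difference of the responses gave 9 to 30 after 6 h and 6 to 26 after 24 h.

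Directions that turned were all between BAT and iWAT on FPKM, where all genes shifted by the median given in the results, and on log2(FPKM + 0.1) by -0.58 at 22 °C, -0.35 after 6 h and -0.40 after 24 h. At 22 °C, with pseudocounts 1 and 0.1, Crot was -0.51 and -0.54, Acox3 -0.29 and -0.35, Acaa1b -0.071 and -0.077, and Pex11a -0.14 and -0.14. After 6 h Hsd17b4 was -0.27 and -0.27, and Pex11a -0.25 and -0.26. After 24 h Crot was -0.38 and -0.41, Acox3 -0.24 and -0.29, Hsd17b4 -0.066 and -0.067, and Pex11a -0.33 and -0.35. Hacl1 in both tissues and Cpt1b in iWAT had the lowest group means of the members, 1.23 to 5.40 CPM, and what depth adds to their spread was not tested.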
